A study of Homo sapiens with 4 samples.

Results

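The Notch genes examined here were measured in H2030, a line of human lung adenocarcinoma cells. They were taken by symbol from the deposited expression table, where all 10 were found among 20252 rows: the ligands JAG1, JAG2, DLL1 and DLL3, the receptors NOTCH1, NOTCH2 and NOTCH3, and the target genes HES1, HEY1 and NRARP. The 4 libraries fall into 2 labelled GALNT3 overexpression, called OE-labelled here, and 2 labelled control vector, called vector-labelled. All came from cells at passage 5 to 10 grown for 2 days in RPMI with 10% serum, with no treatment recorded, and all were stranded poly(A) RNA libraries. The labels name neither the promoter that drives the transgene nor a clone, and they do not say that replicates were grown apart, so the spread behind each p-value may be technical.

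GALNT3, which encodes a Golgi enzyme that begins mucin-type O-glycosylation, went against its label. It was at 0.0164 and 0 FPKM (fragments divided by transcript length and library size) in the OE-labelled libraries, against 4.34 and 5.34 FPKM in the vector-labelled libraries. In whole fragments this was 1 against 621, a depth-corrected ratio of 0.00171 with an exact 95% interval of 4.33e-05 to 0.00957 for counting error. Every direction below is therefore between libraries as labelled and would turn round if the labels were swapped. Libraries held between 14705 and 14891 genes above 0, and relative depth ran from 0.966 to 1.07. The epithelial keratins KRT8 and KRT18 were abundant (109 to 145 FPKM and 331 to 439 FPKM), whereas EPCAM was at 0.459 to 1.40 FPKM, CDH1 (E-cadherin) at 0.0495 to 0.209 FPKM, and KRT19 was listed at 0 in all 4 libraries. KRT7, another keratin of simple epithelia, ran lower, at 4.24 and 5.18 FPKM in the OE-labelled libraries, against 7.50 and 7.18 FPKM in the vector-labelled libraries (limma, adjusted p = 0.165). KRT8, KRT18, EPCAM and CDH1 went the other way, higher without overlap, as for 19.4% of genes above 0. In the same order of groups, KRT18 was at 439 and 420 against 370 and 331 FPKM (limma, adjusted p = 0.570). EPCAM was at 1.40 and 0.670 against 0.543 and 0.459 FPKM. CDH1 was at 0.131 and 0.209 against 0.0495 and 0.0967 FPKM. Summed over 6 epithelial markers, the level was 590 and 569 FPKM in the OE-labelled libraries, against 518 and 448 FPKM in the vector-labelled libraries; KRT8 and KRT18 made up most of it. The part of these marker differences in the results below was not tested. Of 5 immune, 5 endothelial and 5 fibroblast markers, only the monocyte marker CD14 and the collagen gene COL1A1 reached 1 FPKM in any library.

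Notch is a receptor that signals between touching cells. A ligand of the Jagged or Delta type on one cell binds a Notch receptor on its neighbour, the receptor is cut by ADAM10 and then by gamma-secretase, and the freed intracellular part joins the DNA-binding protein RBPJ to switch on genes such as HES1, HEY1 and NRARP. The receptors carry O-linked sugars (fucose and glucose) that tune which ligand they answer to. In the lung, Notch signalling is known for setting the balance between secretory and ciliated airway cells. The question was whether a higher level of the ligand JAG2 in the OE-labelled libraries came with a difference in receptors or targets.

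JAG2, one of the Jagged ligands, was at 14.3 and 16.5 FPKM in the OE-labelled libraries, against 7.54 and 7.16 FPKM in the vector-labelled libraries. Both OE-labelled values lay above both others, and the means of 15.4 ± 1.6 and 7.35 ± 0.27 FPKM (SD, n = 2 each) differed 2.10-fold. On the log2(FPKM + 1) scale used for all fits, which understates differences of low genes, this was 0.97. This difference prompted the choice of genes, so it is given as a description with no test. In bulk RNA, fewer cells with the message and less of it per cell cannot be told apart. JAG2 lies at chr14:105140981-105168824, minus strand (GRCh38, GENCODE 29), and its mean level stood at percentile 52.0 of the 10998 genes that averaged 1 FPKM or more and were tested.

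JAG1, the other Jagged ligand, ran the opposite way. It was at 0.983 and 1.23 FPKM in the OE-labelled libraries, against 1.77 and 1.65 FPKM in the vector-labelled libraries, with no overlap between the groups. These values came from 113 and 140 fragments in the OE-labelled libraries, against 224 and 193 in the vector-labelled libraries. The depth-corrected ratio of fragments was 0.645, with an exact 95% interval of 0.550 to 0.756 for counting error. In the fit across all genes, however, the log2 difference of -0.37 ± 0.13 (SE, n = 2 each) did not pass (limma, adjusted p = 0.528), although its unadjusted 95% interval of -0.66 to -0.07 left out 0. The size depended on the constant added before taking logs: it was -0.59 with 0.1 FPKM and -0.14 with 5 FPKM, and neither passed.

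Both Delta-type ligands were low. DLL3, which in cells mainly acts inside the same cell to restrain Notch and is a known surface marker of neuroendocrine lung cancer, was at 1.61 and 1.12 FPKM in the OE-labelled libraries, against 1.37 and 1.21 FPKM in the vector-labelled libraries. The groups overlapped, and the log2 difference of 0.04 ± 0.14 did not pass (limma, adjusted p = 0.977). Of the neuroendocrine markers, INSM1 was listed at 0 in all 4 libraries, and SYP was at 1.77 to 3.42 FPKM, with overlap. NCAM1 did not overlap, at 0.489 and 0.458 FPKM in the OE-labelled libraries, against 0.917 and 0.662 FPKM in the vector-labelled libraries, and its part in the values of DLL3 was not tested. Among genes averaging 1 FPKM or more, 15.3% were lower without overlap. NCAM1 averaged 0.631 FPKM, and no share of lower genes was taken among all genes above 0. DLL1, a ligand that activates Notch on neighbouring cells, was at 0.0486 and 0.0653 FPKM in the OE-labelled libraries, against 0.0294 and 0.0319 FPKM in the vector-labelled libraries. That was 3 and 4 fragments against 2 and 2, a ratio of 1.86 whose counting interval ran from 0.473 to 8.67, so a difference was not detectable at this depth. DLL1 also overlaps FAM120B on the opposite strand, and the sources used here do not say whether counting used strand. JAG2 overlaps the processed transcript AL512356.1 on the same strand. JAG1 and NOTCH1 overlap the antisense genes AL050403.2 and AL592301.1. The part of these overlaps in the values was not tested.

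FPKM is scaled by length, so levels of the ligand genes may be added. Their sum was 17.0 and 19.0 FPKM in the OE-labelled libraries, against 10.7 and 10.0 FPKM in the vector-labelled libraries. JAG2 made up 84.4% and 87.3% of it in the OE-labelled libraries, against 70.4% and 71.2% in the vector-labelled libraries, with means of 85.9% ± 2.0 and 70.8% ± 0.55 (SD, n = 2 each). Without JAG2 the sum was 2.64 and 2.41 FPKM in the OE-labelled libraries, against 3.16 and 2.89 FPKM in the vector-labelled libraries. JAG2 was therefore the most abundant of the 4 ligand genes in every library. The level of JAG2 divided by that of JAG1 was 14.6 and 13.5 in the OE-labelled libraries, against 4.27 and 4.33 in the vector-labelled libraries. Because JAG2 enters these sums and ratios, they are descriptions with no test.

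**Figure D1:**
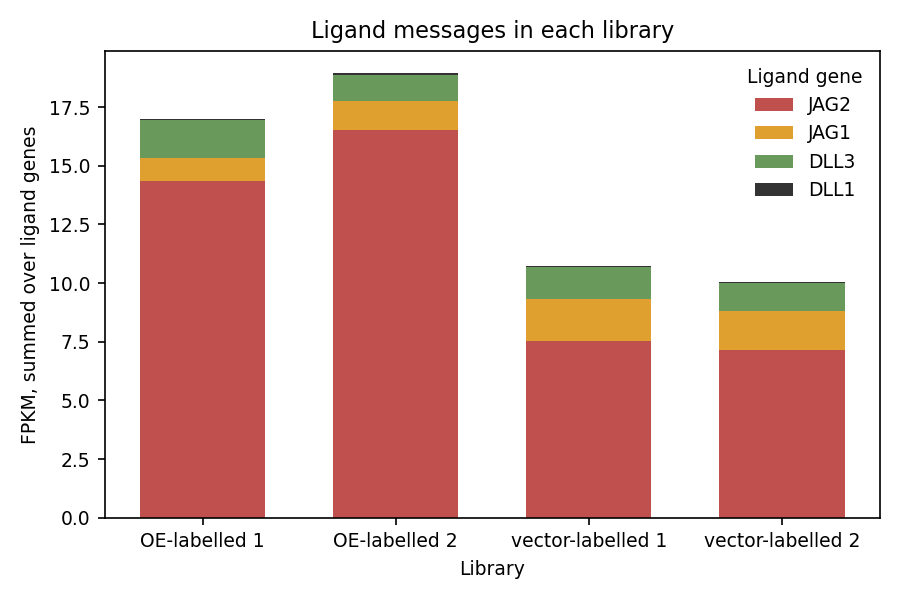
Stacked bars give the FPKM of JAG2, JAG1, DLL3 and DLL1 in each of the 4 libraries, on a linear axis from 0. The bars reach 17.0 and 19.0 FPKM in the OE-labelled libraries, against 10.7 and 10.0 FPKM in the vector-labelled libraries, with JAG2 the block at the base in each.

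No receptor passed the test. NOTCH2 was the most abundant, at 4.70 and 5.28 FPKM in the OE-labelled libraries, against 4.92 and 4.59 FPKM in the vector-labelled libraries. The groups overlapped, and the log2 difference was 0.06 ± 0.11 (limma, adjusted p = 0.953). The gene has near-identical partial copies, the NOTCH2NL genes, with which it can exchange fragments, so its level is uncertain. NOTCH1 was at 1.22 and 1.43 FPKM in the OE-labelled libraries, against 1.22 and 1.25 FPKM in the vector-labelled libraries, or 477 against 473 fragments. Its groups overlapped as well, with a log2 difference of 0.05 ± 0.12 (limma, adjusted p = 0.963). The sum of the 3 receptors was 6.67 and 7.47 FPKM in the OE-labelled libraries, against 7.54 and 6.45 FPKM in the vector-labelled libraries.

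NOTCH3 differed between the vector-labelled libraries. It was at 0.748 and 0.760 FPKM in the OE-labelled libraries, against 1.40 and 0.611 FPKM in the vector-labelled libraries. Vector replicate 1 held 241 fragments (counting interval 1.23 to 1.59 FPKM) and vector replicate 2 held 97 (0.495 to 0.745 FPKM), so the gap within the vector-labelled group was larger than counting error. The mean of NOTCH3 over the 4 libraries was 0.879 FPKM, just under the minimum of 1 FPKM for the main fit, while NRARP, the lowest member inside it, had 1.12 FPKM. With every gene above 0 fitted, the log2 difference of NOTCH3 was -0.16 ± 0.20 (limma, adjusted p = 0.892). It was 0.12 without vector replicate 1 and -0.45 without vector replicate 2, so its direction rested on 1 library.

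HES1 is the classic direct target of Notch and encodes a repressor of differentiation genes. It was at 5.33 and 4.73 FPKM in the OE-labelled libraries, against 4.80 and 4.34 FPKM in the vector-labelled libraries, or 250 against 242 fragments. The groups overlapped, and the log2 difference of 0.11 ± 0.11 did not pass (limma, adjusted p = 0.906, interval -0.15 to 0.37). NRARP encodes a small ankyrin-repeat protein that Notch induces and that limits Notch signalling in turn. It was at 1.46 and 1.07 FPKM in the OE-labelled libraries, against 1.11 and 0.820 FPKM in the vector-labelled libraries, or 121 against 99 fragments. These groups overlapped too, with a log2 difference of 0.20 ± 0.15 (limma, adjusted p = 0.853, interval -0.14 to 0.55). It was 0.08 without OE-labelled replicate 1 and 0.33 without OE-labelled replicate 2.

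HEY1, a repressor related to HES1 and another direct Notch target, was low, and its groups did not overlap, as for 19.4% of genes above 0 in that direction. It was at 0.386 and 0.340 FPKM in the OE-labelled libraries, against 0.219 and 0.0949 FPKM in the vector-labelled libraries. The smallest whole numbers of fragments that give these values are 8 and 7 in the OE-labelled libraries, against 5 and 2 in the vector-labelled libraries. With these numbers the ratio was 2.28, with a counting interval of 0.874 to 6.61. Its longest coding transcript (2296 bases) is better met by numbers 2 times as large, which would narrow the interval. Whether the narrower interval would leave out 1 was not computed. HEY1 was below the minimum of the main fit. With every gene above 0 fitted, its log2 difference of 0.24 ± 0.06 did not pass (limma, adjusted p = 0.442). The sum of HES1, NRARP and HEY1 was 7.18 and 6.14 FPKM in the OE-labelled libraries, against 6.13 and 5.26 FPKM in the vector-labelled libraries. The closest values of the 2 groups were almost level, HES1 made up most of each sum, and the sum was not tested.

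The promoters of HES1, NRARP and JAG2 are shown because HES1 and NRARP read out Notch signalling and JAG2 is the gene that differed. Sequences are from RefSeq (GRCh38.p14), 250 bases before the gene's start and 50 after, 5′ to 3′ on the gene's strand. Capitals mark TGGGAA, the core motif of RBPJ, searched on both strands.
HES1, chr3:194135898-194136197, plus strand: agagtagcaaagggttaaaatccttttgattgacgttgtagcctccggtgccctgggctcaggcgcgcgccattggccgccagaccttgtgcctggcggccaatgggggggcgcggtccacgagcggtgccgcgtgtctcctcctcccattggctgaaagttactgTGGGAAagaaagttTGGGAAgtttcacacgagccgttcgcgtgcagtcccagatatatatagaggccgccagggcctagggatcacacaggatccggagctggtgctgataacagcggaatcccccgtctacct
NRARP, chr9:137302222-137302521, minus strand: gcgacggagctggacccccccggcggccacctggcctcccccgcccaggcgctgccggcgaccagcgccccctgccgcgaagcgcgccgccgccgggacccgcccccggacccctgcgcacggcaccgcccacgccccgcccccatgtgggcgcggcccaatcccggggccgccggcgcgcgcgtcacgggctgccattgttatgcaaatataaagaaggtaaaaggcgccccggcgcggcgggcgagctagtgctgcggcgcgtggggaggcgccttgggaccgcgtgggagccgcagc
JAG2, chr14:105168727-105169026, minus strand: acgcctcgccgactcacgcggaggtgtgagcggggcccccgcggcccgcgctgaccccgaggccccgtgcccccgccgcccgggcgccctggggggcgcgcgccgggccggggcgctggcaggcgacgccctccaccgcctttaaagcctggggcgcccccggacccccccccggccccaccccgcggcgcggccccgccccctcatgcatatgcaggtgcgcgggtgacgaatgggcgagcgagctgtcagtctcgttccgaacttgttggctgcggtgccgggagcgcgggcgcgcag
The HES1 window holds the motif at 2 places on the plus strand, starting 84 and 70 bases before the gene's start. The windows of NRARP and JAG2 hold none, and neither do those of JAG1, NOTCH1, NOTCH2 and NOTCH3. DLL1, DLL3 and HEY1 were not matched in the promoter table. Of 35116 promoter windows of this length, 24.0% hold the motif at least once and 3.80% at 2 or more places. A match describes letters only, and these data do not show binding. Only the exact letters were searched, so a window without a match may still hold a variant of the motif. Variants in the HES1 window would not be marked either.

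Set against the whole table, 55 of 10998 genes passed, which is 0.5% of those tested, with 0.109% higher and 0.391% lower in the OE-labelled libraries. Of the 10 Notch genes, 7 averaged 1 FPKM or more. Of the 6 of these other than JAG2, 0 passed in limma and 1, JAG1, had an unadjusted p below 0.05, against 7.34% of all tested genes. JAG1 was also the only one of the 6 whose groups did not overlap, against 36.2% of all tested genes (20.9% higher and 15.3% lower). The median log2 difference of the 6 was 0.06, beside 0.02 for all tested genes. The unadjusted intervals of the 6 together ran from -0.66 to 0.55. Of DLL1, NOTCH3 and HEY1, fitted only with every gene above 0 (15991 genes, of which 0.075% passed), 0 passed and 1, HEY1, had an unadjusted p below 0.05, against 8% of the genes in that fit.

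**Figure D2:**
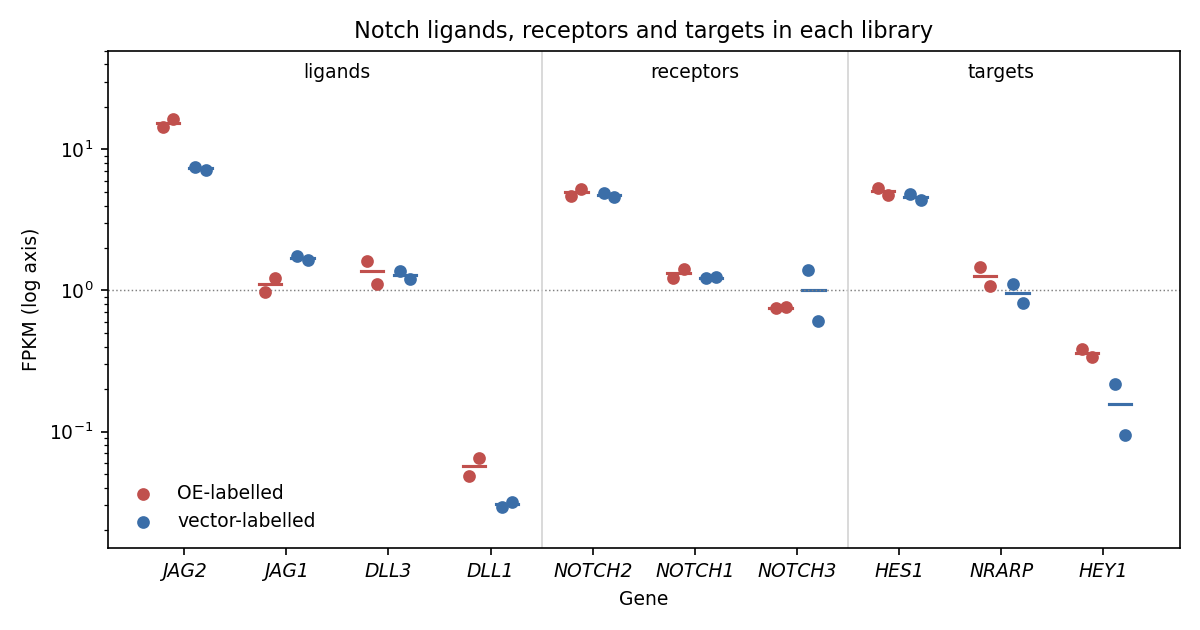
Points give the FPKM of each gene in each library on a log axis, and short lines give group means; the OE-labelled libraries stand left of the vector-labelled libraries, and the dotted line marks 1 FPKM. JAG2 lies highest and apart between the groups, JAG1 runs the other way, and the 2 vector-labelled points of NOTCH3 (1.40 and 0.611 FPKM) enclose both OE-labelled points.

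**Figure D3:**
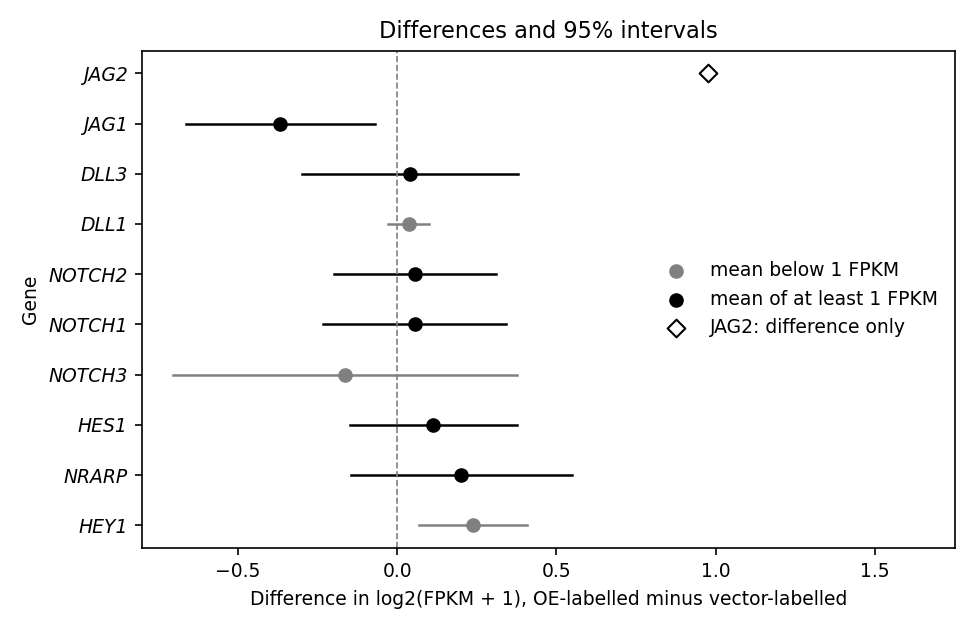
Points give the difference in log2(FPKM + 1), OE-labelled minus vector-labelled, and bars its unadjusted 95% interval from limma; grey genes have a mean below 1 FPKM and come from the fit of every gene above 0. JAG2 (0.97) is drawn as a difference only, and among the others the intervals of JAG1 and HEY1 leave out 0 before adjustment while 0 pass after it.

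No other tested gene of the pathway passed. Of 51 partners 43 were tested and 0 passed in limma, with a median log2 difference of 0.02 and a range of -0.26 to 0.26. Unadjusted p was below 0.05 for 3 of them, against 7.34% of all tested genes: FURIN, ITCH and CCNC, the last named after its value was seen. The groups did not overlap in 10 higher and 10 lower partners of 43, against 20.9% higher and 15.3% lower of all tested genes. FURIN, the protease that makes the first cut of Notch receptors in the Golgi, was at 49.3 and 55.0 FPKM in the OE-labelled libraries, against 44.9 and 43.7 FPKM in the vector-labelled libraries (limma, adjusted p = 0.632). ITCH, a ubiquitin ligase that marks Notch for degradation, was at 19.4 and 18.6 FPKM in the OE-labelled libraries, against 16.5 and 15.9 FPKM in the vector-labelled libraries (limma, adjusted p = 0.637).

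Messages of several parts of the machinery that carries the signal were found in both groups. PSENEN, a gamma-secretase subunit, had the highest mean over the 4 libraries among 14 tested genes of receptor processing and glycosylation, at 103 and 85.6 FPKM in the OE-labelled libraries, against 99.4 and 84.6 FPKM in the vector-labelled libraries. In the nuclear complex, SNW1, a cofactor of RBPJ and of splicing, was at 73.9 and 73.4 FPKM in the OE-labelled libraries, against 65.5 and 65.6 FPKM in the vector-labelled libraries (limma, adjusted p = 0.754). KAT2B, a histone acetyltransferase that aids Notch transcription, was at 5.02 and 4.79 FPKM in the OE-labelled libraries, against 6.56 and 5.59 FPKM in the vector-labelled libraries (adjusted p = 0.688). RBPJ itself, named for its role, was at 8.34 and 7.73 FPKM in the OE-labelled libraries, against 9.04 and 8.42 FPKM in the vector-labelled libraries (limma, adjusted p = 0.900). MAML2, another gene of this complex, was below 1 FPKM and outside the main fit. It did not overlap, at 0.231 and 0.121 FPKM in the OE-labelled libraries, against 0.358 and 0.401 FPKM in the vector-labelled libraries. Among genes averaging 1 FPKM or more, 15.3% were lower without overlap, and no share of lower genes was taken among all genes above 0. NEURL1, a ligand ubiquitin ligase, had 1 and 1 fragments in the OE-labelled libraries, against 0 and 1 in the vector-labelled libraries. The counting interval of its ratio ran from 0.111 to 125.5, so these values give no direction. MAML2 and NEURL1 were named after their values were seen.

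Among the remaining roles no gene passed either. MIB1, the ligase that lets a ligand be pulled into its own cell, was at 5.60 and 4.17 FPKM in the OE-labelled libraries, against 5.40 and 4.74 FPKM in the vector-labelled libraries (limma, adjusted p = 0.970). The corepressor NCOR1 was at 17.4 and 16.7 FPKM in the OE-labelled libraries, against 17.4 and 14.8 FPKM in the vector-labelled libraries (limma, adjusted p = 0.926). TLE4, a Groucho-type corepressor used by HES proteins, was at 6.17 and 7.47 FPKM in the OE-labelled libraries, against 5.41 and 5.73 FPKM in the vector-labelled libraries (limma, adjusted p = 0.732). NUMB, an inhibitor of Notch, was at 24.9 and 24.1 FPKM in the OE-labelled libraries, against 23.0 and 20.7 FPKM in the vector-labelled libraries (limma, adjusted p = 0.790). DLK2, a Delta-like protein that lacks the canonical receptor-binding domain, was at 7.46 and 5.09 FPKM in the OE-labelled libraries, against 5.18 and 4.80 FPKM in the vector-labelled libraries (limma, adjusted p = 0.809). The receptor NOTCH4 was listed at 0 in all 4 libraries, and the ligand DLL4 was between 0.169 and 0.539 FPKM, with overlap.

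Of 20 further genes known as Notch targets 12 were tested and 0 passed in limma, and 1, HES4, had an unadjusted p below 0.05, against 7.34% of all tested genes. HES4, a relative of HES1, was at 4.33 and 3.76 FPKM in the OE-labelled libraries, against 2.80 and 2.90 FPKM in the vector-labelled libraries, with a log2 difference of 0.39 ± 0.11 (limma, adjusted p = 0.403). ID3, a dominant inhibitor of helix-loop-helix factors that also has other inputs, was the most abundant, at 220 and 213 FPKM in the OE-labelled libraries, against 194 and 184 FPKM in the vector-labelled libraries (limma, adjusted p = 0.732). The groups did not overlap in 6 higher and 1 lower of the 12, against 20.9% higher and 15.3% lower of all tested genes. Their median log2 difference was 0.11, beside 0.02 for all tested genes. Below 1 FPKM, HEY2 was higher without overlap in the OE-labelled libraries, and HES7 and GATA3 were lower without overlap. These genes were named after their values were seen. Among all genes above 0, 19.4% were higher without overlap, and no share was taken for lower genes. HEY2 was at 0.714 and 0.719 FPKM in the OE-labelled libraries, against 0.536 and 0.361 FPKM in the vector-labelled libraries. Its 70 against 47 fragments gave a depth-corrected ratio of 1.58, with an exact 95% interval of 1.08 to 2.34 for counting error. HES7 was at 0.477 and 0.446 FPKM in the OE-labelled libraries, against 0.742 and 0.503 FPKM in the vector-labelled libraries. Its 27 against 39 fragments gave a ratio of 0.736, with a counting interval of 0.433 to 1.23. GATA3 was at 0.211 and 0.248 FPKM in the OE-labelled libraries, against 0.271 and 0.277 FPKM in the vector-labelled libraries. Its 26 against 33 fragments gave a ratio of 0.838, with a counting interval of 0.481 to 1.44. HES5 was listed at 0 in all 4 libraries.

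**Figure D4:**
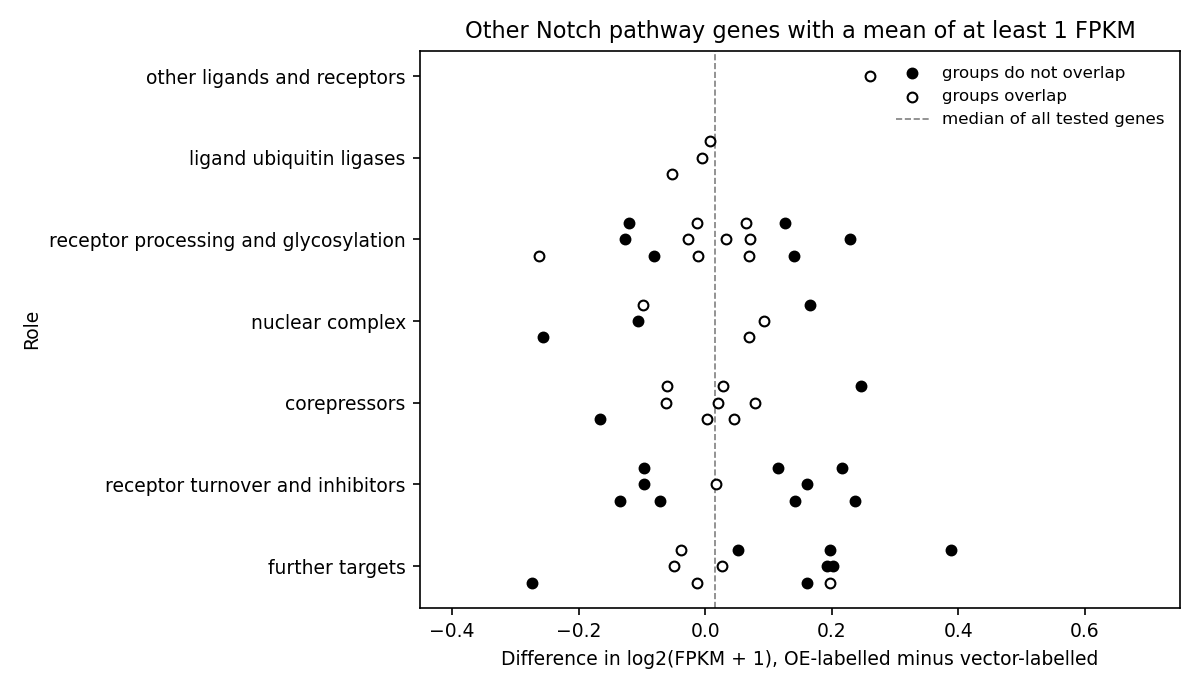
Each point is 1 tested gene, placed by its difference in log2(FPKM + 1), OE-labelled minus vector-labelled, and grouped by role; filled points are genes whose groups do not overlap, and the dashed line is the median of all tested genes (0.02). Partners lie between -0.26 and 0.26 on both sides of the line, and HES4 (0.39) is the point farthest to the right.

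The genes whose pattern over the 4 libraries lay closest to that of JAG2 were CKB, SFTA1P, FERMT1, IL13RA2 and ANKRD2, among 7870 candidates that averaged 5 FPKM or more. Likeness was the Euclidean distance between centred log2(FPKM + 1) values, from 0.22 for CKB to 0.35 for ANKRD2. CKB, the brain-type creatine kinase, was at 14.3 and 13.3 FPKM in the OE-labelled libraries, against 7.07 and 6.13 FPKM in the vector-labelled libraries. With 4 libraries this ranking mostly picks genes with a difference of similar size, and it is given as a description with no test.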

How the data were processed

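RNA was measured in 4 H2030 libraries. The authors deposited one table with a column of FPKM per library; its header names no unit, and FPKM was read from the values (not whole, column sums of 401366 to 448194, low values stepping with transcript length). TopHat, GenomeStudio 2010.1, GRCh38 and hg19 appear in the submitters' processing notes without their roles; how fragments were counted, on which annotation and with what filters is not given in the sources used here. No column of values was left unassigned (0).

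Genes averaging 1 FPKM or more over all 4 libraries were compared as log2(FPKM + 1) with limma 3.58.1 (lmFit, eBayes with trend) in R 4.3.3; the model held only the group. Two-sided p-values were adjusted over all tested genes (Benjamini-Hochberg, threshold 0.05); 95% intervals are unadjusted. An exact permutation test of 2 libraries against 2 cannot go below p = 0.333. Whole fragments were recovered from the steps of low values (within 0.01 of a whole number) with scipy 1.17.1; 250 genes with 1 transcript put the libraries at about 18100000 to 20100000 fragments. JAG2, NOTCH2 and DLL3 gave no whole numbers. Exact binomial and Poisson intervals cover counting error only.

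The members and lists were chosen with earlier results of these data known. Named were all members, GALNT3, and in each pathway role the most abundant gene and that with the smallest p, plus the 5 genes closest to JAG2; exceptions are stated. NEURL1 and EOGT were matched by older symbols. Alternatives were the added constant, the filter, centring, quantile normalization, no trend, a replicate block, leaving out genes at 0 and leaving out each library.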

Additional observations from a re-analysis of the deposited data

How the results depend on the processing

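Of the Notch genes other than JAG2, the partners and the further targets, 0 passed in limma under each of the 13 alternatives. Among genes averaging 5 FPKM or more no Notch gene but JAG2 was tested, and DLL1, NOTCH3 and HEY1 were tested only with every gene above 0. The number of all genes passing, 55, was 12 with every gene above 0 tested and 31 with the stricter filter, and it ran from 23 (without vector replicate 1) to 83 (without OE-labelled replicate 2) with 1 library left out. The log2 difference of JAG2 ran from 0.73 to 1.07. The difference in JAG2's share of ligand FPKM was 15.7 percentage points with DLL4 in the sum and 13.6 to 16.5 with 1 library left out. JAG1 stayed lower, from -0.59 to -0.14, with adjusted p from 0.109 to 0.916. HES1 and NRARP stayed higher, at 0.04 to 0.19 and 0.07 to 0.35. DLL3, at 0.04 with all libraries, was -0.11 without OE-labelled replicate 1 and -0.01 without vector replicate 2. Without OE-labelled replicate 2, NOTCH1 was at -0.0084 and NOTCH2 at -0.013. In fits chosen after seeing the data, HEY1 and DLL1 stayed higher with each library left out (0.16 to 0.32 and 0.02 to 0.05). The replicate numbers come from the titles, and nothing says that they pair the libraries; same-numbered libraries deviated together at r = 0.218 across genes, and the replicate block gave 443 calls over all genes and 0 among the Notch genes other than JAG2, where HES4 had an adjusted p of 0.0552 (limma). Precision is limited by 2 libraries a group and, for DLL1 and HEY1, by few fragments.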

Other observations

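Genes beside JAG2 on chromosome 14 were looked at after the data were seen. Within 500 kb of it in the RefSeq gene table (GRCh38.p14), used here only for which genes neighbour each other, 13 other genes averaged 1 FPKM or more. In 10 of these both OE-labelled libraries lay above both vector-labelled libraries, in 0 below, and in 3 the groups overlapped, while 20.9% of all tested genes were higher without overlap. Their median log2 difference was 0.26, with a range of -0.05 to 0.41, against 0.97 for JAG2 and 0.02 for all tested genes, and 0 passed (limma, smallest adjusted p = 0.352; 5 had an unadjusted p below 0.05, against 7.34% of all tested genes). CDCA4 was at 62.0 and 75.1 FPKM in the OE-labelled libraries, against 49.7 and 56.8 FPKM in the vector-labelled libraries. AKT1, which encodes a kinase of growth signalling, was at 120 and 137 FPKM in the OE-labelled libraries, against 104 and 110 FPKM in the vector-labelled libraries. No test of the 13 genes as a group was made.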
